A study of Rattus norvegicus with 102 samples.

Results

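The receptors for serotonin, dopamine and noradrenaline were described here in the hippocampus of young and aged rats. They were taken by name, as all genes whose symbol began with Htr, Drd, Adra or Adrb followed by a digit, and genes of the receptor kinases (symbols beginning with Adrbk) were left out. This gave 27 genes of the 26284 listed in the Illumina table, and the same number of genes in the Ion Proton and WT tables. They comprised 14 serotonin receptor genes, 5 dopamine receptor genes and 8 adrenergic receptor genes, and the adrenergic Adra1b was not analysed here. The rule used no measured value.

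RNA had been sequenced from CA1, CA3 and the dentate gyrus (DG) of 34 male Fisher 344 rats, an inbred strain widely used for studies of aging, and each rat gave 1 library per subfield and table. The 10 young rats were between 5 and 6 months of age and the 24 aged ones between 17 and 22 months. The aged rats were classed as unimpaired (12) or impaired (12) by their preference for the former platform quadrant in a water maze probe trial with the platform removed. The labels name no transgene and no drug treatment, and all rats had been trained in the maze before the brain was taken. Subfields were pieces of whole tissue cut by hand along the length of 1 hippocampus, with CA2 and subiculum not isolated as pieces of their own, so every value is a sum over neurons, glia, vessels and any neighbouring tissue, and fewer cells of a type and less RNA per cell cannot be told apart.

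Serotonin reaches the hippocampus in fibres from the raphe nuclei, noradrenaline in fibres from the locus coeruleus, and dopamine from midbrain neurons and from locus coeruleus fibres. All receptors of these amines except the serotonin-gated ion channel formed by Htr3a and Htr3b act through G proteins. Receptors coupled to Gs (Drd1, Drd5, Htr4, Htr6, Htr7 and the beta-adrenergic receptors) raise cyclic AMP, those coupled to Gi (Drd2, Drd3, Drd4, the Htr1 group and the alpha-2 receptors) lower it and open potassium channels, and those coupled to Gq (the Htr2 group and the alpha-1 receptors) release calcium from internal stores. In the hippocampus they set the excitability of pyramidal and granule cells and bear on the storage of memory.

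The promoters of 3 members are printed because these genes differed between the pyramidal fields: Htr5b (ENSRNOG00000002549) and Drd5 (ENSRNOG00000005338), with higher values in CA1, and Htr7 (ENSRNOG00000018827), with higher values in CA3. Each run holds the 250 bases before and the 50 bases after the annotated start of the gene, 5′ to 3′ on the strand of the gene, from RefSeq for the build GRCr8. The tables were made on the older build rn5. Capitals mark the GC box GGGCGG and the core TGACG of the cyclic AMP response element, on either strand. The Htr5b run is chr13:35252537-35252836 (minus strand), the Drd5 run chr14:76703295-76703594 (minus strand) and the Htr7 run chr1:243172999-243173298 (minus strand).
Htr5b: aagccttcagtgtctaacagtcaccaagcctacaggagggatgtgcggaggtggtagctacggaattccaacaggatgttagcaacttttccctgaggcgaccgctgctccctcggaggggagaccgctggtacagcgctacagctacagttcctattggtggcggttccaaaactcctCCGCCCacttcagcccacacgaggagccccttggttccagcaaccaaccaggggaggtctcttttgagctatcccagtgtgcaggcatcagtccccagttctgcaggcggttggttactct
Drd5: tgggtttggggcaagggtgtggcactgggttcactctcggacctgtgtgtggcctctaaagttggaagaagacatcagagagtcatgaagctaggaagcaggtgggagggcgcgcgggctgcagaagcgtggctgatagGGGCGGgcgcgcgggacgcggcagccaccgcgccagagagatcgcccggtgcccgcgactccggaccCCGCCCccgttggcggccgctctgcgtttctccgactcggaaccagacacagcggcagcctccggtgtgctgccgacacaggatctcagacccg
Htr7: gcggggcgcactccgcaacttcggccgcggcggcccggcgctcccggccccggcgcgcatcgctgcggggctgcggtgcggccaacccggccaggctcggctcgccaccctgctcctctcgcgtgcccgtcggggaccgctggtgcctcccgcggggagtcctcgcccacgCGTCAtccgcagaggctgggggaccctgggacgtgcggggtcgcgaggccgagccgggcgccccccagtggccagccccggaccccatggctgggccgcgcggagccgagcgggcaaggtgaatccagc

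Htr5b held 1 GC box in this window, Drd5 held 2, and Htr7 held 1 cyclic AMP element core and no GC box. Promoters were listed for 20 of the 27 members, and members without one include Htr1a, Htr2a, Htr3a, Htr4, Adra1a and Adrb3. The GC box was present in 9 of the 20 member promoters and in 33.1% of all 33469 promoters of the same length, and the cyclic AMP element core in 4 of 20 and in 21.2%. None of the member promoters held the TATA box TATAAA on either strand, against 14.2% of all promoters, while the E box CANNTG was found in 11 of 20 and in 72.1%. The median GC content was 61.8% for member promoters and 51.7% for all. These matches describe letters in a window, and no binding was measured.

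Values are normalised reads, that is, read counts divided by a size factor per library, from the poly-A RNA on the Illumina instrument unless the Ion Proton or the WT table is named. Levels were not compared between genes, because no gene lengths were used, nor between tables, which had been normalised separately. The depth of the Illumina libraries was 3.25 to 42.8 M reads in genes (median 10.7 M). At the median depth a count of 0 allows up to 0.279 reads per M, from a limit of 3 reads, and this covers counting error only. Differences are log2 changes of value + 1 with their standard error (SE), and a gene was called between subfields when its adjusted p from limma was under 0.05 in the Illumina and in the Ion Proton table with the same direction. Both tables were made from RNA of the same rats, so the second table bears on technical error alone.

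Over the 3 subfields, 16 libraries lay nearer to another subfield than to their label when scored with marker genes of CA1 pyramidal cells, CA3 pyramidal cells and DG granule cells in both poly-A tables. Of these, 12 were labelled CA3 (4 in each of the young, unimpaired and impaired groups), 3 DG and 1 CA1. They came from 14 rats, of which 13 carried a number from 9000 up. The labels give each rat a number, and the 18 rats numbered below 9000 and the 16 numbered from 9000 up each held all 3 groups. The rats had been kept and tested at separate sites, in Arizona and Florida, and came from different suppliers, but the labels tie no rat to a site. The set from 9000 up held 5 young and 11 aged rats and the set below 9000 held 5 young and 13 aged rats, the same split as between the sites in the methods. Number set, site and supplier therefore cannot be told apart. In CA3 the summed CA3 markers ran from 22880.7 to 28660.6 in rats numbered below 9000 (median 24477.2) and from 5939.1 to 21974.0 in rats numbered from 9000 up (median 14983.7), without overlap. The summed CA1 markers in the same CA3 libraries had medians of 2341.9 and 5072.9. Subfield changes within each set of rats, taken from the Illumina table, are therefore given beside most pooled ones, and the sets were compared in 1 fit of subfield by set.

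Of the 27 members, 21 had a mean of at least 10 and were tested. Median absolute log2 changes over these 21 were 0.377 between CA1 and CA3, 0.440 between CA1 and DG and 0.539 between CA3 and DG, against 0.0914, 0.133 and 0.135 over all genes tested. Members and other genes were not matched for expression level. The comparison of CA1 with DG called 11 of 21 members, while 26.9% of all genes tested were called. The comparison of CA1 with CA3 called 10 of 21 (14.4% of all genes tested), and that of CA3 with DG called 11 of 21 (28.5%). Any pair of these comparisons shares the libraries of 1 subfield. Htr1f, Htr5a and Htr6 were tested and called in none of them.

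**Figure D1:**
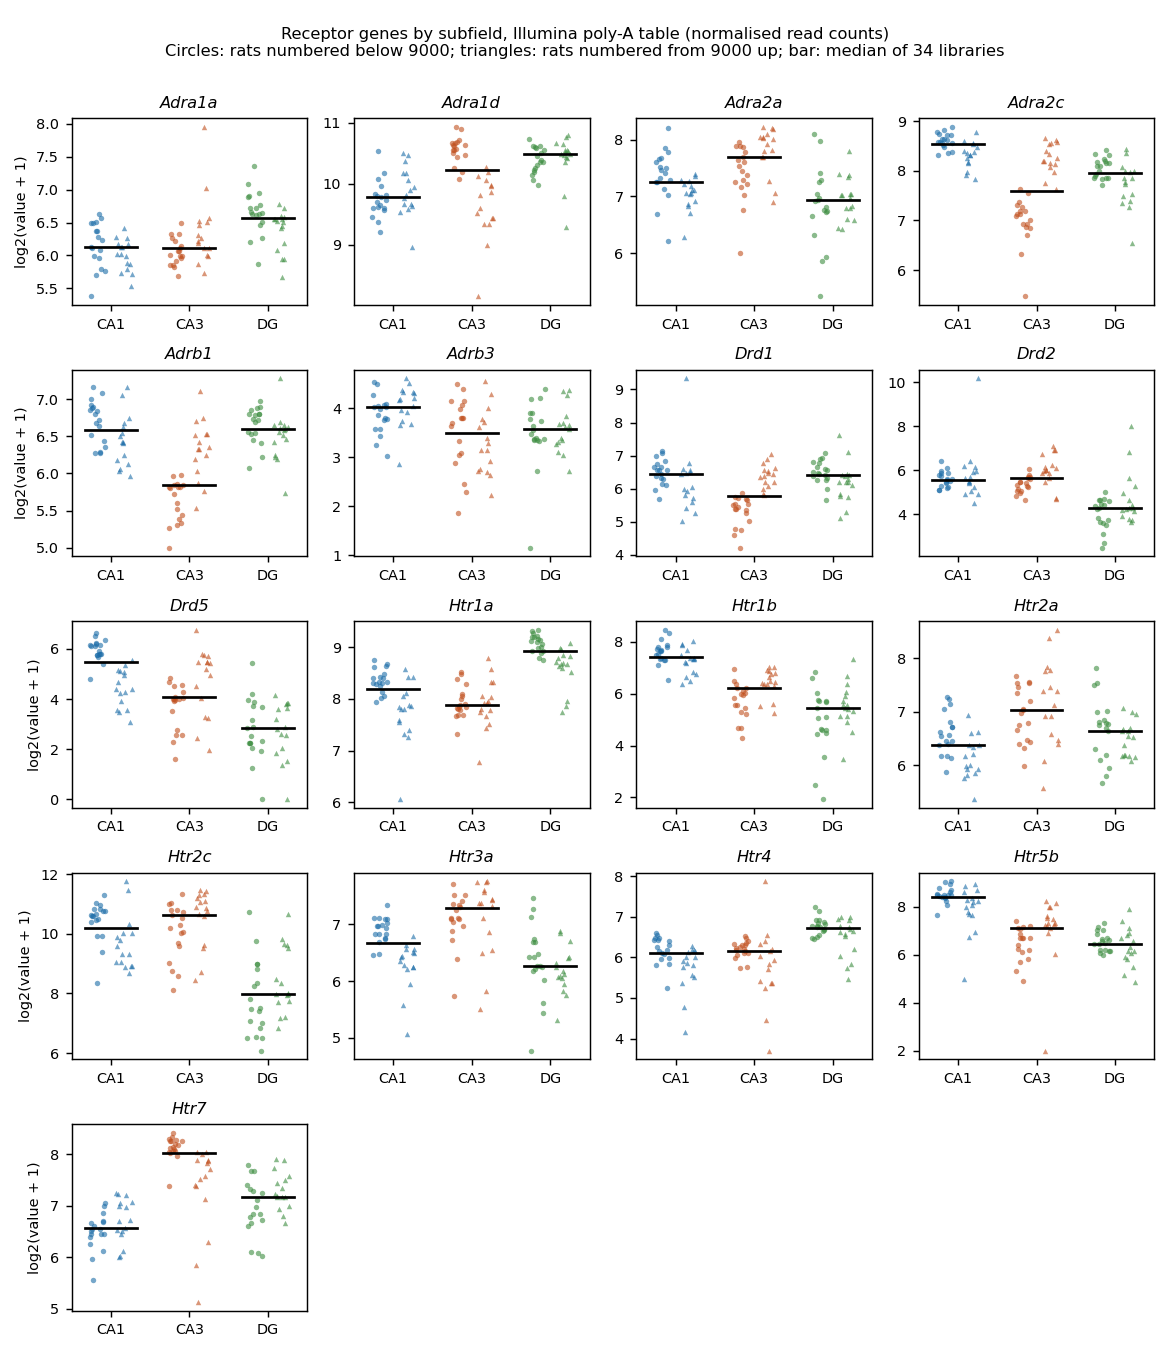
Normalised reads of receptor genes in each Illumina library, as log2(value + 1), by subfield, with circles for rats numbered below 9000, triangles for rats numbered from 9000 up and a bar at the median of 34 libraries. Htr1b and Htr5b lie highest in CA1, Htr7 in CA3 and Htr1a in DG, and in CA3 the circles of Adra2c lie below all its triangles.

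Htr1b, a Gi-coupled serotonin receptor best known as a brake on release at axon terminals, was highest in CA1. Its values ran from 81.4 to 350.8 in CA1 (median 170.6), from 18.6 to 131.0 in CA3 (median 73.2) and from 2.8 to 162.6 in DG (median 42.4). All 34 CA1 libraries lay above the CA3 median and above the DG median, and 28 of them lay above every CA3 library. The change was 2.23 ± 0.20 for CA1 against DG (adjusted p = 2.85e-17, limma) and 1.39 ± 0.20 for CA1 against CA3 (adjusted p = 9.29e-09). The Ion Proton table gave 2.43 and 1.52. Htr1b was also higher in CA3 than in DG, by 0.84 (adjusted p = 0.000189), and all 3 differences kept their direction within both sets of rats, although CA3 against DG was called only below 9000.

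Htr5b encodes a serotonin receptor close to Htr5a that is intact in rats and mice and a pseudogene in humans. It ran from 30.5 to 529.2 in CA1 (median 336.2), from 3.0 to 296.0 in CA3 (median 135.2) and from 28.3 to 237.1 in DG (median 87.3). In rats numbered below 9000 all 18 CA1 libraries lay above every CA3 and every DG library. In rats numbered from 9000 up the ranges overlapped, with 7 of 16 CA1 libraries above every CA3 library. The difference from DG was 1.76 ± 0.21 (adjusted p = 8.94e-12, limma), and within the lower and higher rat numbers it was 1.95 and 1.54. The difference from CA3 was 1.46 ± 0.21 (adjusted p = 1.15e-08), and 2.05 and 0.80 within the sets. The second of these was not called. CA3 and DG did not pass the test against each other (0.30 ± 0.21, adjusted p = 0.220).

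Htr2c, the Gq-coupled receptor that is densest in the choroid plexus and is also present in neurons, was low in DG. Its values were 325.6 to 3481.5 in CA1 (median 1173.2), 273.5 to 2859.6 in CA3 (median 1601.3) and 66.4 to 1717.1 in DG (median 249.2). Every CA1 and every CA3 library lay above the DG median, although the highest DG libraries reached into the range of the others. CA1 exceeded DG by 1.99 ± 0.24 (adjusted p = 2.89e-11, limma) and CA3 exceeded DG by 2.20 ± 0.24 (adjusted p = 5.18e-13). The Ion Proton values were 1.86 and 2.08. CA1 and CA3 did not pass the test (-0.21 ± 0.24, adjusted p = 0.534), and the sign differed between the sets of rats, with 0.38 below 9000 and -0.87 from 9000 up. The Htr2c gene overlaps several small RNA genes in the RefSeq annotation, among them Mir448 and Mir764, and reads could not be split between them and Htr2c.

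Drd2, the Gi-coupled dopamine receptor, was likewise lowest in DG. It ran from 21.9 to 1163.3 in CA1 (median 46.8), from 24.1 to 136.2 in CA3 (median 49.5) and from 4.6 to 261.9 in DG (median 18.4). All CA1 and all CA3 libraries lay above the DG median, and in rats numbered below 9000 all 18 CA1 libraries lay above all 18 DG libraries. The differences from DG were 1.36 ± 0.21 for CA1 (adjusted p = 3.9e-08, limma) and 1.32 ± 0.21 for CA3 (adjusted p = 6.14e-08). They were 1.60 and 1.35 below 9000 and 1.07 and 1.28 from 9000 up, all called. DESeq2 gave no adjusted p for Drd2 in either comparison. The highest CA1 and DG values belonged to libraries rich in markers of striatum, described further down.

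Drd5, a Gs-coupled dopamine receptor present in hippocampal pyramidal cells, ran from 7.5 to 97.97 in CA1 (median 43.3), from 2.1 to 107.0 in CA3 (median 15.7) and from 0.0 to 42.6 in DG (median 6.1). In DG 9 of 34 libraries held at most 3 reads, and 2 of these held none. CA1 exceeded DG by 2.46 ± 0.27 (adjusted p = 5.22e-13, limma), with 2.75 on the Ion Proton and 3.13 and 1.69 within the lower and higher rat numbers. All 34 CA1 libraries lay above the DG median. CA3 exceeded DG by 1.39 ± 0.27 (adjusted p = 7.22e-06), with 0.87 below 9000, which was not called, and 1.98 from 9000 up. CA1 exceeded CA3 by 1.06 ± 0.27 (adjusted p = 0.00101), and this value was the mean of sets of rats that differed. Below 9000 the CA1 libraries ran from 26.5 to 97.97 and the CA3 libraries from 2.1 to 27.7. From 9000 up they ran from 7.5 to 45.8 and from 2.9 to 107.0. The difference was thus 2.27 below 9000 and -0.29 from 9000 up.

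Drd1, the other Gs-coupled dopamine receptor, had CA1, CA3 and DG medians of 86.1, 53.9 and 83.4 and ranges of 31.7 to 644.2, 17.5 to 132.4 and 33.5 to 195.8. It was lower in CA3 than in DG by 0.54 ± 0.15 on the log2 scale (adjusted p = 0.00196 on the Illumina and 0.0171 on the Ion Proton, limma). This too was a mean over sets of rats that differed, with -1.19 below 9000 and 0.20 from 9000 up. CA1 exceeded CA3 by 0.55 ± 0.15 in the Illumina table (adjusted p = 0.00270), which the Ion Proton table did not call (adjusted p = 0.196). edgeR, DESeq2 and quantile normalisation called it. The Drd1 call between CA3 and DG was in turn lost with edgeR, with DESeq2, in the WT table and without the deeply sequenced rats.

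Htr1a, Htr4, Htr7, Adra1a and Adra1d were higher in DG than in CA1. Htr1a, the Gi-coupled receptor that hyperpolarises pyramidal and granule cells, ran from 65.6 to 427.9 in CA1 (median 290.9), from 109.3 to 441.6 in CA3 (median 236.1) and from 212.5 to 643.5 in DG (median 483.1). No CA1 or CA3 library reached the DG median. The change was -0.79 ± 0.10 for CA1 against DG (adjusted p = 5.26e-10, limma) and -0.92 ± 0.10 for CA3 against DG (adjusted p = 1.52e-12). The first was -0.73 and -0.85, and the second -1.13 and -0.68, within the lower and higher rat numbers. Both were called below 9000 and neither from 9000 up (Ion Proton adjusted p = 0.176 and 0.0838). In rats below 9000 all 18 DG libraries lay above all CA1 and all CA3 libraries.

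Htr4, a Gs-coupled receptor, had CA1, CA3 and DG medians of 67.6, 70.0 and 104.7 and ranges of 16.8 to 96.0, 12.0 to 233.5 and 43.4 to 149.5. The highest CA3 value was a single library. CA1 lay below DG by 0.67 on the log2 scale (log2 change -0.67 ± 0.13, adjusted p = 6.75e-06, limma), and CA3 by 0.63 (log2 change -0.63 ± 0.13, adjusted p = 1.55e-05). No CA1 library and 1 CA3 library lay above the DG median. Within the lower and higher rat numbers the first change was -0.58 and -0.76 and the second -0.57 and -0.70, and the first was called only below 9000 and the second only from 9000 up. The Htr4 annotation overlaps an uncharacterised gene, as do those of Htr5a and Htr7.

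Adra1d, a Gq-coupled receptor for noradrenaline, ran from 499.5 to 1486.4 in CA1 (median 875.8), from 282.7 to 1953.6 in CA3 (median 1199.2) and from 622.9 to 1786.5 in DG (median 1428.3). CA1 lay below DG, with a change of -0.59 ± 0.11 (adjusted p = 1.64e-06, limma) and with -0.64 and -0.54 within the lower and higher rat numbers. Against CA3 the Illumina change was -0.31 ± 0.11 (adjusted p = 0.0162) and the Ion Proton adjusted p was 0.0504, so it was not called. It was called with edgeR (-0.38), with DESeq2 (-0.38), with quantile normalisation (-0.30) and below 9000 (-0.81). Adra1a, the second Gq-coupled alpha-1 receptor tested, had medians of 68.6, 68.3 and 94.1 in CA1, CA3 and DG. Its ranges were 40.6 to 97.97, 50.3 to 246.3 and 50.3 to 163.6. It was lower in CA1 than in DG by 0.44 ± 0.09 on the log2 scale (adjusted p = 1.01e-05 and, on the Ion Proton, 0.0137), and was called neither in either set of rats alone (-0.50 and -0.37) nor in the WT table.

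**Figure D2:**
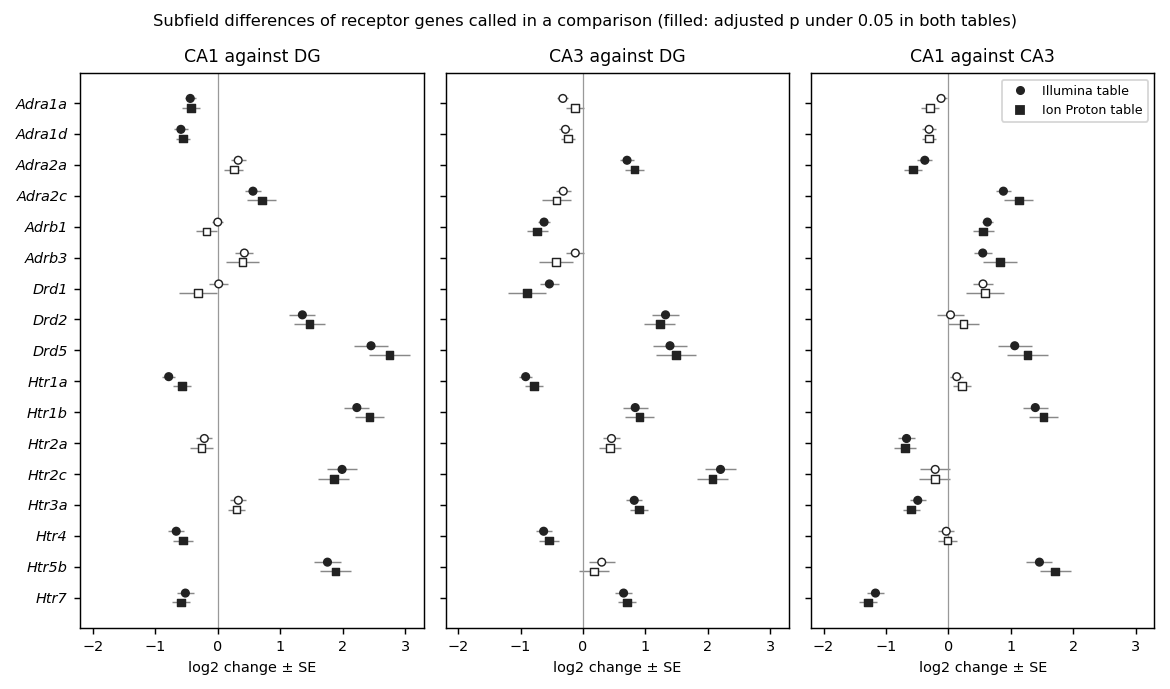
Log2 change ± SE of the receptor genes called in at least 1 comparison for the pairs of subfields in the Illumina and Ion Proton tables, with filled symbols for an adjusted p under 0.05 in both. Htr1b, Htr5b, Htr2c and Drd5 lie farthest to the CA1 side of DG, and Htr1a, Htr4 and Adra1d lie to the DG side.

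Htr7, a Gs-coupled serotonin receptor, was the member with the clearest preference for CA3. It ran from 46.1 to 150.2 in CA1 (median 93.9), from 33.97 to 340.9 in CA3 (median 260.4) and from 64.4 to 239.1 in DG (median 143.8). No CA1 library reached the CA3 median, and in rats numbered below 9000 all 18 CA3 libraries lay above all 18 CA1 libraries. CA1 lay below CA3 with a change of -1.17 ± 0.13 (adjusted p = 4.11e-12, limma), which was -1.29 on the Ion Proton. CA3 exceeded DG by 0.65 ± 0.13 (adjusted p = 1.57e-05), with 1.18 below 9000 and 0.05 from 9000 up. CA1 lay below DG by 0.52 ± 0.13 on the log2 scale (adjusted p = 0.000532), with -0.46 and -0.58 in the sets. Htr7 was thus intermediate in DG over all rats, and its call over DG in CA3 was kept below 9000 and not from 9000 up. The DG libraries themselves held summed CA3 markers with medians of 15784.4 below 9000 and 16540.8 from 9000 up, against 24477.2 and 14983.7 in CA3. Over all rats 5 of 10 CA3 markers were called lower in CA3 than in DG and 2 higher (list median -0.33), and the part of CA3 tissue in the DG values of Htr7 was not tested.

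Htr3a, Htr2a and Adra2a also had their highest medians in CA3. Htr3a, the ion channel subunit that marks a class of interneurons, ran from 32.7 to 161.4 in CA1 (median 100.6), from 44.6 to 216.0 in CA3 (median 155.1) and from 26.3 to 175.6 in DG (median 75.7). Its changes were -0.49 ± 0.13 for CA1 against CA3 (adjusted p = 0.00111, limma) and 0.82 ± 0.13 for CA3 against DG (adjusted p = 3.05e-08). The second was like in size in both sets of rats (0.74 and 0.91), and the first was not (-0.18, which was not called, and -0.84). Summed interneuron markers had medians of 24696.5 in CA3 and 19232.7 in DG below 9000, and 24076.1 and 19802.3 from 9000 up. For CA1 against CA3, 2 of 11 interneuron markers were called lower and 0 higher (list median 0.01). The part of interneurons in the Htr3a changes was not tested. Htr2a, a Gq-coupled receptor, ran from 40.1 to 154.3 in CA1 (median 82.3), from 46.7 to 369.7 in CA3 (median 130.5) and from 50.1 to 225.6 in DG (median 98.8). It was lower in CA1 than in CA3 by 0.67 ± 0.13 on the log2 scale (adjusted p = 1.58e-05), with -0.36 below 9000, which was not called, and -1.02 from 9000 up. The 0.46 ± 0.13 between CA3 and DG passed only on the Illumina (Ion Proton adjusted p = 0.0555). With the rat as a block it was called in both tables, as it was with edgeR (0.54) and DESeq2 (0.54).

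Adra2a, a Gi-coupled receptor that also restrains noradrenaline release, ran from 73.6 to 294.4 in CA1 (median 151.8), from 63.0 to 297.6 in CA3 (median 206.7) and from 36.8 to 274.0 in DG (median 121.0). CA3 exceeded DG by 0.70 ± 0.12 (adjusted p = 2.46e-07, limma), with 0.58 and 0.85 in the sets of rats. CA1 lay below CA3 by 0.38 ± 0.12 on the log2 scale (adjusted p = 0.00756), a difference of -0.03 below 9000, which was not called, and -0.77 from 9000 up.

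Adra2c, the second alpha-2 receptor with measurable reads, was highest in CA1. It ran from 228.6 to 471.9 in CA1 (median 370.0), from 43.3 to 405.0 in CA3 (median 191.5) and from 91.9 to 346.9 in DG (median 247.7). All 34 CA1 libraries lay above the CA3 median. CA1 exceeded DG by 0.56 ± 0.12 (adjusted p = 5.25e-05, limma), and by 0.55 and 0.58 in the sets of rats. The call against DG was lost below 9000 (Ion Proton adjusted p = 0.435), with a pseudocount of 0.1 and without libraries rich in markers of other tissue. CA1 exceeded CA3 by 0.88 ± 0.12 (adjusted p = 4.13e-09). Below 9000 CA3 ran from 43.3 to 197.0, below all 18 CA1 libraries (320.2 to 471.9) and below all 18 DG libraries (208.6 to 340.5). From 9000 up CA3 ran from 199.1 to 405.0 and overlapped with CA1 (228.6 to 437.7). For CA3 against DG the Adra2c change was accordingly -1.07 below 9000 and 0.53 from 9000 up, each called in its own set of rats, and -0.32 over all rats, which was not called.

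The beta-adrenergic receptors couple to Gs, and Adrb1 is the main one in the forebrain. Adrb1 had CA1, CA3 and DG medians of 95.0, 56.5 and 96.3 and ranges of 61.6 to 142.7, 30.9 to 137.7 and 52.5 to 154.6. It was lower in CA3 than in both other subfields, by 0.63 ± 0.09 against CA1 (adjusted p = 2.11e-08, limma) and by 0.62 ± 0.09 against DG (log2 change -0.62, adjusted p = 7.7e-09). Below 9000 the CA3 values, 30.9 to 62.2, lay under all CA1 values (76.3 to 142.5) and all DG values (66.4 to 125.2), and from 9000 up they reached from 45.4 to 137.7 across both. The change of CA1 against CA3 was 1.07 below 9000 and 0.12 from 9000 up, and that of CA3 against DG was -1.02 and -0.18, and neither was called from 9000 up. The call of CA3 against DG was also lost in the WT table (-0.24). Between CA1 and DG the change was 0.00 ± 0.09. Adrb3, best known from fat, had medians of 15.3, 10.4 and 10.8 in CA1, CA3 and DG, and ranges of 6.3 to 23.4, 2.6 to 22.7 and 1.2 to 20.0. It was higher in CA1 than in CA3 by 0.55 ± 0.14 (adjusted p = 0.00114 on the Illumina and 0.0231 on the Ion Proton), near the limit of what could be tested. The Adrb3 change was 0.37 below 9000 and 0.75 from 9000 up. Its call was lost with a pseudocount of 0.1 and without the libraries nearer another subfield. Below 9000, in the WT table and without the libraries rich in markers of other tissue it was not called because it was not tested in every table.

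The fit of subfield by set of rats compared these differences directly. For CA1 against CA3 the difference itself differed between the sets for 6 of 21 members, while 13.9% of all genes tested did, and for CA3 against DG for 4 of 21, while 17.2% of all genes tested did. For CA1 against DG no member and 0.108% of all genes were called in limma's test, and edgeR also called no member. At an unadjusted p under 0.05 in the Illumina table (limma), 6 of 21 members passed for CA1 against DG, all with a negative shift. Of all genes, 2095 of 14179 passed. Rats from 9000 up minus rats below 9000, the CA1 minus CA3 change shifted by -2.56 for Drd5, by -1.55 for Adra2c, by -1.25 for Htr2c, by -0.95 for Adrb1, by 1.07 for Adra1d and by 1.01 for Htr7. The CA3 minus DG change shifted by 1.59 for Adra2c, by 0.85 for Adrb1, by -1.13 for Htr7 and by -0.97 for Adra1d. In CA1 minus CA3 the call of Adrb1 was lost with edgeR (Ion Proton adjusted p = 0.0580) and each time libraries were left out, that of Htr2c was lost without the deeply sequenced rats, and edgeR also called Htr5a and Htr5b. In CA3 minus DG these 4 were called in all 4 alternatives run, and edgeR also called Drd1 and Drd5. Apart from Htr2c between CA1 and CA3 and Adra1d between CA3 and DG, each of these changes was larger in size below 9000 than from 9000 up. Adra1d lay below CA3 in all 18 CA1 libraries against the CA3 median below 9000 (change -0.81) and above it in 10 of 16 libraries from 9000 up (change 0.26).

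The 16 libraries that lay nearer another subfield had been picked by subfield markers in these same data, which favours larger subfield differences without them. They held 12 of the 16 CA3 libraries of rats numbered from 9000 up, so the CA3 libraries left were mostly from rats below 9000. Without these libraries CA1 against CA3 called Drd5 (1.41), Adra2c (1.27), Adrb1 (0.87), Htr5b (1.91), Htr1b (1.68) and Htr7 (-1.41), each larger in size than over all libraries. Adra1d (-0.60) and Drd1 (0.82) were also called. Htr2a and Htr3a were called as before, and the calls of Adra2a and Adrb3 were lost. The shift between the sets in CA1 minus CA3 was then called for 3 members, Adra1d, Adra2c and Htr7, and the shift in CA3 minus DG was called for the same 4 members as over all libraries. With few CA3 libraries of rats from 9000 up left, lost calls cannot be told apart from the effect of fewer libraries. Marker lists of several cell types shifted between the sets in the same fit. For CA1 minus CA3, 5 of 7 CA1 markers and 7 of 10 DG granule markers shifted down (list medians -1.76 and -1.98), and 8 of 10 CA3 markers, 7 of 7 oligodendrocyte markers and 2 of 3 ependyma markers shifted up (list medians 1.32, 1.39 and 2.63). For CA3 minus DG, 8 of 10 DG granule markers shifted up (list median 2.08) and 7 of 7 oligodendrocyte markers shifted down (list median -1.73). The summed subiculum markers in CA3 had medians of 1052.6 below 9000 and 2439.9 from 9000 up. The part of these tissues in the receptor shifts was not tested.

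**Figure D3:**
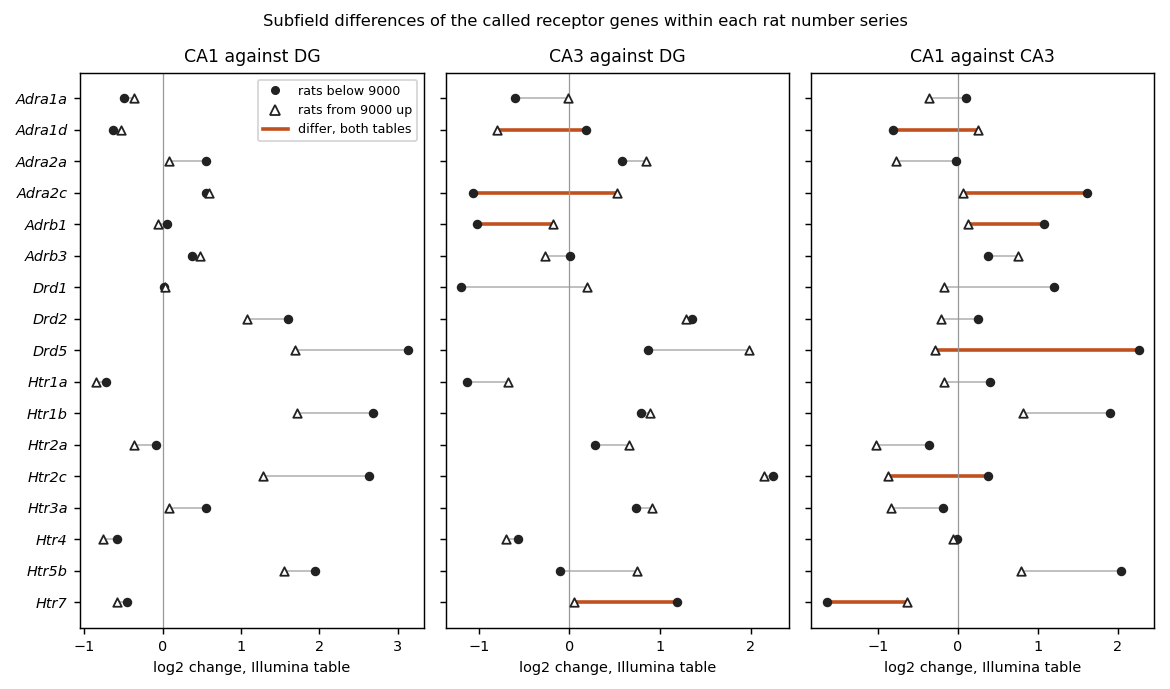
Log2 change of the receptor genes called in at least 1 comparison, in the Illumina table for the pairs of subfields, within rats numbered below 9000 and within rats numbered from 9000 up, with orange lines where the sets differed in both poly-A tables. CA1 against DG gave values of the same sign for each of the 11 called genes, while Drd5 for CA1 against CA3 and Adra2c for CA3 against DG lie on opposite sides of 0.

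Of the tested genes called in no comparison, Htr1f, a Gi-coupled receptor, had medians of 22.4, 23.2 and 24.4 in CA1, CA3 and DG, and Htr6, a Gs-coupled receptor, had 45.4, 43.5 and 49.2. Htr5a, the intact relative of Htr5b in most mammals, had medians of 104.4, 89.8 and 83.3. None of these was called with limma, and DESeq2 called Htr5a higher in CA1 than in DG (0.30). Htr1f passed on the Ion Proton alone (-0.56 for CA1 against DG, adjusted p = 0.0193, limma).

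The remaining members had a mean under 10 and were not tested: Htr1d, Htr2b, Htr3b, Adra2b, Drd3 and Drd4. Their Illumina medians lay between 0.0 and 2.6 in every subfield. With no filter on low values Htr1d was called higher in CA1 than in DG (0.82, limma, and 0.84 on the Ion Proton), and 31 of 34 CA1 libraries lay above the DG median. Htr3b, which joins Htr3a in one form of the serotonin-gated channel, had no read in 29, 31 and 28 of 34 libraries of CA1, CA3 and DG. Only 1 library of the 3 subfields, a DG library at 5.3, held more than 3 Htr3b reads. Htr2b, a Gq-coupled receptor best known from heart valves and gut, had medians of 0.9, 1.3 and 0.8 in the Illumina table and of 1.0, 0.5 and 1.8 in the Ion Proton table, but of 14.1, 14.8 and 14.6 in the WT table, whose library type is not given in the sources used here. The Htr2b gene lies inside Psmd1, a gene of the proteasome, in the RefSeq annotation, and whether reads of Psmd1 entered its counts was not tested. A single Illumina library, CA3 of impaired rat R9875, held 59.4 for Htr2b, 246.3 for Adra1a and 233.5 for Htr4, where its Ion Proton library held 0.0, 71.9 and 87.0. It was also the library with the fewest reads (3.25 M) and one of those nearer another subfield.

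Drd1, Drd2 and Htr2c have higher levels in brain tissue next to the hippocampus, and a few libraries held markers of such tissue. The striatum markers (among them Adora2a, Rgs9, Penk, Tac1, Pde10a and Ppp1r1b) summed to 25376.5 in the CA1 library of unimpaired rat R9869, 8.9 times the CA1 median of 2838.7. This library, which also lay nearer another subfield, held the highest Drd2 value of all, 1163.3 (973.4 on the Ion Proton and 801.4 in the WT table). It also held the highest Drd1 value, 644.2 (494.7 and 1272.5), and the highest Htr1d value, 27.6. In the DG library of impaired rat R9872 the striatum markers summed to 7379.2, 2.4 times the DG median, and Drd2 was 261.9 and Drd1 195.8, both the highest of DG. The same libraries held the highest Drd1 and Drd2 values of their subfield in the Ion Proton and WT tables.

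The choroid plexus markers (Ttr, Kl, Folr1, Aqp1, Clic6, Otx2, Prlr, Kcnj13 and Slc4a5) summed to 155436.8 in the CA1 library of impaired rat R9870 and to 129893.1 in that of unimpaired rat R9865, 540.3 and 451.5 times the CA1 median. These libraries held the highest and a high CA1 value of Htr2c, 3481.5 and 2825.2, and 2170.5 and 2165.7 in the WT table. On the Ion Proton they held 1004.4 and 877.7, against a CA1 median of 715.4 and a highest value of 2839.3 in another library, impaired rat R1931. Htr2c thus stood apart in these libraries on the Illumina and not on the Ion Proton.

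In all, 10 libraries held striatum markers at 2 times or choroid plexus markers at 10 times the median of their subfield. Without them Drd2 in CA1 against DG was 1.44 (adjusted p = 3.77e-13, limma) and in CA3 against DG 1.52, and Htr2c was 2.00 and 2.36. These differences were no smaller than with them. The limits were chosen after seeing the data and take out only the libraries that exceed them. The part of smaller amounts of neighbouring tissue in these differences was not tested.

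**Figure D4:**
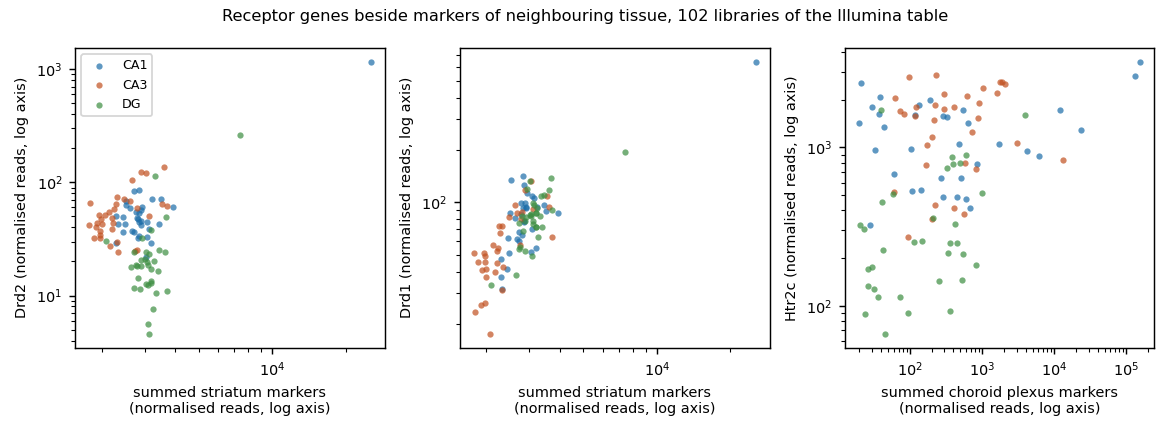
Drd2, Drd1 and Htr2c in each Illumina library against the summed markers of striatum or choroid plexus, both as normalised reads on log axes. The CA1 library of rat R9869 lies at the upper right for Drd2 and Drd1, and the pair of CA1 libraries with the highest choroid plexus sums lies among the highest for Htr2c.

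For age, the 24 aged rats were set against the 10 young rats in CA1, CA3 and DG separately. A gene was called when its unadjusted p was under 0.01 in the Illumina table and its one-sided p was under 0.05 in the same direction on the Ion Proton. No member was called in CA1 (0 of 21 tested, 0.851% of all genes) or CA3 (0 of 20, 0.402%), and 1 of 19 was called in DG (1.09%). At an unadjusted p under 0.05 in the limma fit of the Illumina table the counts were 1, 0 and 2 members (6.15%, 3.31% and 5.20% of all genes). No member had an adjusted p under 0.05, while 48 genes in CA1 (0.338%), 0 in CA3 and 42 in DG (0.300%) did. Median absolute changes of the members were 0.126, 0.127 and 0.108, and 0.0532, 0.0574 and 0.0458 over all genes, not matched for expression level.

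The member called with age was Adrb1 in DG, which was higher in aged rats. Its values were 66.4 to 93.5 in young (median 85.4), 95.7 to 154.6 in unimpaired (median 107.8) and 52.5 to 116.6 in impaired rats (median 97.5). Every unimpaired rat lay above every young rat, and 19 of the 24 aged rats did. The change was 0.30 ± 0.10 (unadjusted p = 0.00402, adjusted p = 0.378, limma), and 0.35 on the Ion Proton (two-sided p = 0.0528), where only 5 of 24 aged rats lay above every young one. In the WT table the log2 change had the other sign (-0.12), while the medians of 50.3, 51.8 and 56.1 did not fall with age. There 13 of 24 aged rats lay above the young median. Leaving out young rat R2176 or R9876 also lost the call. Of the microglia markers 7 of 10 were called higher with age in DG, as was 1 of 8 astrocyte markers, Gfap (list median 0.03), and their part in the Adrb1 change was not tested.

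Drd5 had the largest age change of a member in CA3, without passing the test. It ran from 2.1 to 107.0 in young rats (median 30.9), from 2.9 to 51.0 in unimpaired rats (median 18.5) and from 3.9 to 29.7 in impaired rats (median 15.4), and 20 of 24 aged rats lay below the young median. The change was -0.77 ± 0.44 (p = 0.0865, limma). It was called when young rat R2221 was left out (-1.11, p = 0.00937), in rats from 9000 up (-1.65, p = 0.00874) and without the libraries rich in markers of other tissue (-1.14, p = 0.00860). The CA1 markers of these CA3 libraries had a median change of -0.37 with age, with none called, and Drd5 in CA1 minus CA3 was 2.27 below 9000 and -0.29 from 9000 up. Below 9000 the age change of Drd5 was 0.15 (p = 0.741), and without the libraries nearer another subfield it was -0.10 (p = 0.846). The highest young value, 107.0 in rat R9879, belonged to one of those libraries, and the CA3 library of R2221 was itself among those rich in choroid plexus markers, at 44.4 times the CA3 median. The part of CA1 tissue in the Drd5 values was not tested.

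Maze performance was compared as impaired (n = 12) against unimpaired (n = 12) aged rats by the same rule. In CA1 1 of 21 members was called (0.635% of all genes), in CA3 0 of 20 (0.0216%) and in DG 0 of 19 (0.124%). At an unadjusted p under 0.05 in limma's fit of the Illumina table the counts were 2, 1 and 4 members (5.71%, 1.40% and 3.85% of all genes). No gene of the whole table had an adjusted p under 0.05 in the 3 subfields.

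The called member was Adra1d in CA1, which was lower in impaired rats. It ran from 499.5 to 980.0 in impaired rats (median 779.2), from 802.1 to 1486.4 in unimpaired rats (median 984.2) and from 737.1 to 1415.3 in young rats (median 892.4). No impaired rat reached the unimpaired median, and 8 of 12 lay below every unimpaired rat. The change was -0.43 ± 0.11 (unadjusted p = 0.00079, adjusted p = 0.523, limma), and -0.48 ± 0.13 on the Ion Proton (p = 0.00104), where 11 of 12 impaired rats lay below the unimpaired median. The WT table gave -0.28 (p = 0.0148). Leaving out each of the 24 rats in turn gave -0.47 to -0.38 and kept the call each time. In rats from 9000 up the change was -0.44 with p = 0.0338, which missed the call at 0.01. Over all 24 rats the list medians of this comparison were -0.21 for CA3 markers, 0.24 for DG granule markers and 0.13 for CA1 markers, with none called. The part of neighbouring subfields in the Adra1d change was not tested. Adra1d is in the list of CA1 genes that the study drew from these same rats for cognition, so its direction here is not independent evidence.

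The Adra1d change was 0.27 ± 0.26 in CA3 and 0.12 ± 0.11 in DG. The difference between the CA1 and CA3 changes was -0.70 ± 0.26 (p = 0.00857, adjusted p = 0.959, limma), so a difference between subfields did not pass after adjustment.

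Drd1 in CA1 showed how much 1 library can weigh. Impaired rats ran from 54.6 to 141.0 (median 96.8), and unimpaired rats from 31.7 to 644.2 (median 66.3), the highest being rat R9869 with its striatum markers. All but 1 of the 12 impaired rats lay above the unimpaired median, in the Illumina, Ion Proton and WT tables alike. Over all 24 rats the change was 0.37 ± 0.31 (p = 0.239, limma), and without rat R9869 it was 0.66 (p = 0.00104) and 1.40 on the Ion Proton (p = 0.0198), which was called. On the Ion Proton 1 unimpaired rat, R2230, was at 0.0 for Drd1. Without all libraries rich in markers of other tissue the Illumina change was 0.59 (p = 0.0127), which missed the call at 0.01. edgeR on the reads of all 24 rats gave -0.16 (p = 0.687).

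The other values with an unadjusted p under 0.05 in the Illumina table were not called. In CA1 Adra2a was higher in impaired rats by 0.35 ± 0.16 (p = 0.0337, limma), with medians of 153.7 against 132.0, and the Ion Proton gave 0.54 (p = 0.0264). In CA3 the value for Htr4 was 0.65 ± 0.27 (p = 0.0244), with the library of rat R9875 as the highest. In DG the values were 0.45 for Htr1f, -0.25 for Adrb1, -0.27 for Adra2c and -0.22 for Htr6, with p between 0.0245 and 0.0486. Htr7 in CA1 was called in the WT table (0.36) and had 0.06 in the Illumina table.

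No difference of an age or performance effect between subfields was called for a member or for any gene of the table at an adjusted p under 0.05 in limma's test. At an unadjusted p under 0.05, 0 members passed for age and 2, 2 and 1 passed for performance in the pairs CA1 and CA3, CA1 and DG, and CA3 and DG. Of all genes, 1.93%, 0.353% and 1.06% passed for age and 4.56%, 3.48% and 1.84% for performance. Among them were Adra1d in both pairs with CA1, Htr4 in both pairs with CA3 and Adrb1 in CA1 and DG.

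**Figure D5:**
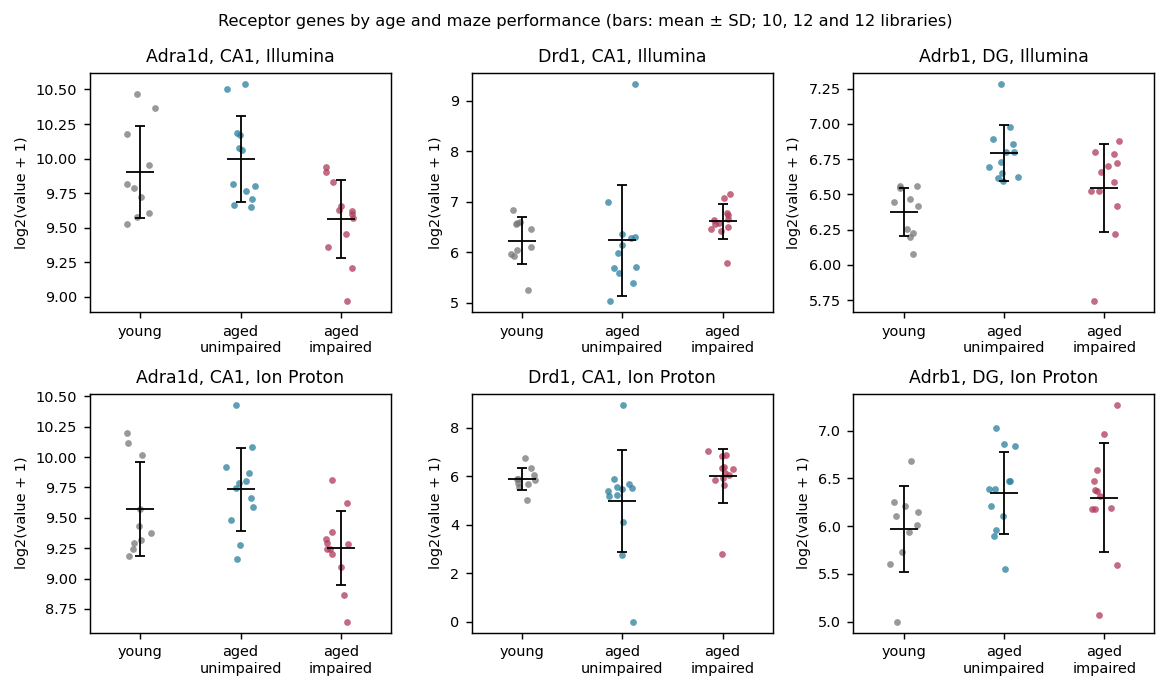
Adrb1 in DG and Adra1d and Drd1 in CA1, as log2(value + 1), in young (10), unimpaired (12) and impaired (12) rats, in the Illumina and Ion Proton tables, with bars for the mean ± SD. Illumina Adrb1 of all 12 unimpaired rats lies above that of all young rats, Adra1d is lower in impaired than in unimpaired rats, and 1 unimpaired rat lies far above the others for Drd1.

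Genes that make, carry, break down or relay these amines gave a view of the rest of the pathway. Of 63 such genes on the list, 49 were tested. For CA1 against CA3, 9 were called higher and 2 lower, for CA1 against DG 10 and 9, and for CA3 against DG 9 and 12, with median absolute changes of 0.127, 0.179 and 0.236 (0.0914, 0.133 and 0.135 over all genes tested). Of all genes tested, 14.4%, 26.9% and 28.5% were called in these comparisons, and the medians were not matched for expression level. None of the listed genes was called for age or for maze performance. The effector group, which holds potassium channels opened by Gi and regulators of G protein signalling, had 6, 7 and 10 of 14 called in the same order of comparisons.

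Slc29a4, a low-affinity transporter that takes up serotonin and dopamine, was higher in CA1 than in CA3 by 0.93 (adjusted p = 1.06e-11, limma) and lower in CA3 than in DG (log2 change -0.99, adjusted p = 2.37e-13). Rgs4, which shortens Gq and Gi signals, was higher in CA1 than in CA3 by 0.67 (adjusted p = 0.0120) and higher in CA1 than in DG by 1.20 (adjusted p = 2.69e-06). S100a10, a partner of the Htr1b receptor that brings it to the cell surface, was higher in CA1 than in DG by 1.46 (adjusted p = 1.21e-20), as Htr1b itself was. Rgs14, a marker of CA2, was higher in CA1 than in DG by 0.80 (adjusted p = 2.29e-08). Rgs10 and Rgs9 were lower in CA3 than in DG (-1.18 with adjusted p = 4.49e-21, and -1.04 with adjusted p = 2.11e-05). Tph2, the enzyme of serotonin synthesis in raphe neurons, was called higher in CA1 than in CA3 (0.69, adjusted p = 0.000481). The serotonin transporter Slc6a4, which marks the serotonin neurons themselves, had a median of at most 2.7 in each subfield. The shift between the sets of rats was called for 10 of the 49 tested pathway genes in CA1 minus CA3, 2 in CA1 minus DG and 14 in CA3 minus DG, where 13.9%, 0.108% and 17.2% of all genes tested were called. Of the genes named here these were Rgs4 (-2.01), Rgs10 (-0.44) and Rgs14 (0.67) in CA1 minus CA3, S100a10 (-0.90) in CA1 minus DG, and Rgs4 (1.96), Rgs9 (2.05), Rgs14 (-1.26) and Slc29a4 (0.75) in CA3 minus DG. For Rgs4 between CA1 and CA3 and for Rgs9 between CA3 and DG the shift was larger in size than the pooled change. Those pooled changes are thus means over sets of rats that differed. Rgs9 is also on the list of striatum markers.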

How the data were processed

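Poly-A RNA of CA1, CA3 and DG from 34 rats had been sequenced by Illumina and again by Ion Proton, and a WT table covered the same subfields. The deposited signal values are gene counts that the authors divided by a size factor per library. Per the submitters' processing notes, bcl2fastq 2.17, cutadapt 1.8.3, STAR 2.5, featureCounts 1.4.4 and DESeq2 1.16.1 were used, on build rn5, and TopHat2 aligned the Ion Proton reads. The library type, aligner and counter of the WT table are not given in the sources used here. The labels and methods name different library kits, so strand could not be settled, and reads of overlapping or antisense genes could not be told apart. Values were whole multiples of 1 read (100.0% within 0.01 of a whole read).

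Genes with a mean of at least 10 were tested with limma 3.58.1 (R 4.3.3, trend on the mean) on log2(value + 1) with Benjamini-Hochberg adjustment over all genes tested, which understates changes of low genes. A subfield call needed an adjusted p under 0.05 in both poly-A tables with 1 direction. An age or performance call needed an unadjusted p under 0.01 on the Illumina and a one-sided p under 0.05 on the Ion Proton. Scripts were tested on simulated data. Receptor members, marker lists and pathway lists were chosen with earlier results of these data known. Members that met a call were described in full, the others by level and range, and of the pathway list at most the 3 called genes with the largest change per comparison were named. Drd5 with age in CA3, Drd1 with performance in CA1, the other values given with an unadjusted p under 0.05 and Slc6a4 were added after their values were seen. Libraries of 1 rat are paired by the animal: their deviations from the group means had a median correlation of 0.095, against -0.005 for different rats. Alternatives were edgeR 4.0.16 and DESeq2 1.42.0 on the recovered reads, another pseudocount, no filter, quantile normalisation, a block on the rat, the rat number sets, and leaving out rats or libraries. Some members and markers are not reported here.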

Additional observations from a re-analysis of the deposited data

Results flagged for a closer look

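A single library stood far from the other 9 young rats of its subfield in 8 of 63 groups examined (21 genes in the 3 young groups), where chance gives about 1 in 20. These groups share the same 10 rats and are not independent, so the count was not tested against that rate. Rat R1923 held the highest Adra1a among young libraries in CA1 (94.23, and 120.3 on the Ion Proton and 44.4 in the WT table) and in DG (163.61, 143.7 and 64.7). The same rat held the highest Drd1 among young DG libraries (117.72, 64.0 and 117.2). In DG of rat R9881, Drd2 was 112.78 and Htr2c 1609.62, both high, and Htr4 was 52.71, low. That DG library held choroid plexus markers at 22.2 times the DG median and scored nearest CA3 in the Illumina table and nearest DG on the Ion Proton. Htr2a in DG of rat R2175 was 225.57 (161.5 and 212.4), and Drd5 in CA3 of rat R9879 was 107.05 (104.5 and 61.4), in a library that scored nearest CA1 in both poly-A tables. The part of neighbouring tissue in these values was not tested.

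The subfield difference itself differed between the sets of rats numbered from 9000 up and below 9000 in 1 fit with an interaction term. For CA1 minus CA3 the shift on the log2 scale was 1.0696 for Adra1d, -1.5546 for Adra2c, -0.952 for Adrb1, -2.5565 for Drd5, -1.2459 for Htr2c and 1.0106 for Htr7. For CA3 minus DG it was -0.9741 for Adra1d, 1.594 for Adra2c, 0.8466 for Adrb1 and -1.1318 for Htr7. The labels do not say what the rat numbers stand for, and number set, collection site and supplier cannot be told apart.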

How the results depend on the processing

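Subfield counts lay between 7 and 12 of the members under the alternatives run, except for CA1 against CA3 in rats numbered from 9000 up (6). The shift of that difference between the sets of rats was called for 3 members without the libraries nearer another subfield, 4 without the deeply sequenced rats, 6 without libraries rich in striatum or choroid plexus markers and 7 with edgeR, against 6. The fit behind the count of 3 kept few CA3 libraries of rats from 9000 up. With age, 1 member of CA3 was called in rats numbered from 9000 up and 1 without libraries rich in striatum or choroid plexus markers, the latter chosen after seeing the data. The DG count was 0 with quantile normalisation, in rats below 9000, in rats from 9000 up and in the WT table. For performance, CA1 had 2 calls without libraries nearer another subfield and 0 in rats from 9000 up, and DG had 1 with the number set as a covariate. The sign of the log2 change turned for Adrb1 with age in DG in the WT table (-0.1164), where the medians did not fall. It also turned for Drd1 with performance in CA1 with edgeR (-0.1572). In rats from 9000 up it turned for Drd5 between CA1 and CA3 (-0.2907) and Drd1 between CA3 and DG (0.1966). Several changes not called over all rats also turned in 1 set, among them, from 9000 up, Adra2c between CA3 and DG (0.53) and Adra1d between CA1 and CA3 (0.26), and, below 9000, Htr2c between CA1 and CA3 (0.38) and Drd5 with age in CA3 (0.15). The cause was not tested.

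Leaving out 1 rat at a time gave 0 to 1 age calls in CA3 (1 without rat R2221), 0 to 1 in DG (0 without R2176 or R9876) and 1 to 2 performance calls in CA1 (2 without R9869). The change ran from 0.2614 to 0.3351 for Adrb1, from -0.468 to -0.3797 for Adra1d and from 0.2641 to 0.6552 for Drd1. With the rat as a replicate block, pairing the subfields of each animal, the counts were 10, 11 and 12, the last adding Htr2a between CA3 and DG. DESeq2 gave no adjusted p for Drd2 against DG or for Drd1 with performance in CA1, and these were left out. Depth limits the members under a mean of 10.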
